A study of Mus musculus with 3 samples.

Results

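Oxidative phosphorylation subunit genes of the nuclear genome were examined in mouse T helper 1 (Th1) cells, a class of CD4 T cells known for making interferon gamma. The genes were taken by symbol: NADH dehydrogenase (Nduf), succinate dehydrogenase (Sdh), ubiquinol-cytochrome c reductase (Uqcr), cytochrome c oxidase (Cox4 to Cox8) and ATP synthase (Atp5) names, leaving out names marked as pseudogenes. This rule, which uses no measured value, found 88 of the 50600 genes in the tables. Of these, 40 carry names of complex I, 4 of complex II, 8 of complex III, 19 of complex IV and 17 of complex V.

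The data were gene counts of 3 libraries from primary Th1 cells of strain C57BL/6NJ, numbered in the labels as biological replicates 1, 2 and 3 of 1 group, and the time point in the file headers is 48 h. No treatment arm or other cell type was analysed here, and the labels give neither sex nor age. One donor identifier is shared by the 3 libraries and separate animals or cultures are not named. A p-value over libraries therefore refers only to these samples, whose differences may be technical. Comparisons were made between genes within a library and between the libraries.

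The respiratory chain passes electrons from NADH (through complex I) or succinate (through complex II) by way of ubiquinone to complex III, cytochrome c and complex IV, which reduces oxygen. Complexes I, III and IV pump protons across the inner mitochondrial membrane, and complex V, the ATP synthase, uses the gradient to make ATP. All 4 subunits of complex II are nuclear genes, while the other complexes combine nuclear subunits with a few encoded in mitochondrial DNA. Activated T cells enlarge their mitochondria while they also turn to glycolysis. Several complex IV subunits exist as a widespread form and a form best known from muscle, lung or testis.

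Depth differed widely. The libraries held 4742025, 50627 and 3543816 counts in replicates 1, 2 and 3, so that a single count was worth 0.211, 19.8 and 0.282 CPM, the count scaled to the library total. Levels that correct for gene length are given as TPM, in which the length-corrected counts of a library share 1 fixed sum. No pair of libraries agreed within sampling noise. All 8 T cell markers and all 4 Th1 markers examined, Tbx21 and Ifng among them, reached 1 TPM in every library. The markers Cd8a, Ms4a1, Lyz2, Itgam, Adgre1, Hba-a1 and Hbb-bs had no count. Cd8b1, the other CD8 T cell marker, had 21, 1 and 13 counts and the erythroid Alas2 had 20, 0 and 29, and the summed level of the B cell markers was 3.53, 0 and 8.37 TPM. Csf1r, a myeloid marker whose exons lie for 17.8% under exons of Hmgxb3 on the other strand, stood at 105, 84.5 and 167 TPM. Genes that share exonic positions with a gene of the other strand took 52.7%, 57.8% and 72.2% of the counts of replicates 1, 2 and 3, a property of the whole series that touches several results given here.

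Promoters of the subunit genes are shown first, because these genes sit under shared transcriptional regulators. Nuclear respiratory factor 1 (NRF1), GA-binding protein (GABPA, an ETS factor), YY1 and the estrogen-related receptor ESRRA are known regulators of mitochondrial genes. RefSeq promoter windows of 300 bases (250 before the transcription start and 50 from it, build GRCm38.p6) matched 66 of the 88 genes in 71 windows. Exact letters were searched on both strands. The NRF1 consensus, which reads alike on both strands, stood in 5 of the 71 windows (7.04%, against 0.971% of all 32851 windows), and the GABPA letters CCGGAAG in 16 (22.5% against 8.86%). The YY1 letters AAGATGGCG stood in 7 (9.86%, and 461 of all windows) and the ESRRA letters TCAAGGTCA in 2 (2.82% against 0.423%). The letters GGGGCGGGG of SP1, a general factor for GC-rich promoters, stood in 10 (14.1% against 11.4%, and 15.4% of protein-coding windows). No motif's letters lie within those of another, and a match describes the window only. Median GC content was 57.3% in the subunit windows, 52.7% in all and 56.3% in protein-coding windows.

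Windows that held 2 of the NRF1, GABPA and YY1 motifs were those of Atp5k, Cox6a1 and Atp5j. They are printed 5′ to 3′ on the gene's strand (minus for all 3), with the matched letters in capitals.
Atp5k, chr5:108434350-108434649: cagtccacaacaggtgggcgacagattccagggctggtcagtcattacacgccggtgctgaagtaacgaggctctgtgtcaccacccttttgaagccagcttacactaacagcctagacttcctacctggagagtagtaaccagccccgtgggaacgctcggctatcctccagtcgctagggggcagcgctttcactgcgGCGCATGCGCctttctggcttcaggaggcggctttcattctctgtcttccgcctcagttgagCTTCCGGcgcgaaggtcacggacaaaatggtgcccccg
Cox6a1, chr5:115348909-115349208: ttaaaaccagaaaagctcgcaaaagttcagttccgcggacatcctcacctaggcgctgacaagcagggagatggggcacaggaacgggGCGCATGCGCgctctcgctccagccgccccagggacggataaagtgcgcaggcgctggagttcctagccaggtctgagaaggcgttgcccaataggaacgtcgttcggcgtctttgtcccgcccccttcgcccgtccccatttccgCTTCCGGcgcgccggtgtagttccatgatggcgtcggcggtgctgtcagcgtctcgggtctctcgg
Atp5j, chr16:84834927-84835226: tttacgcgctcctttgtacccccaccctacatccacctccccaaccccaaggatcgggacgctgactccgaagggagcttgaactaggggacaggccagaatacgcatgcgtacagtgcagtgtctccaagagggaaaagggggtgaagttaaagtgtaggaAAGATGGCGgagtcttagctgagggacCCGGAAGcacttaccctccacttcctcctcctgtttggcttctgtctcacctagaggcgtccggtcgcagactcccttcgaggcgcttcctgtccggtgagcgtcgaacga
In the Atp5k window the NRF1 match begins 50 bases before the start and a GABPA match on the other strand begins at base 13. In Cox6a1 the NRF1 match begins 162 bases and the GABPA match 16 bases before the start. The Atp5j window has the YY1 letters at 88 bases and the GABPA letters at 61 bases before the start. Atp5j lies head to head with Gabpa, the gene of that same factor, and the pair returns below among the overlapping genes. The Atp5b window (chr10:128083057-128083356, plus strand), shown because Atp5b had the highest mean level of all 88 genes in replicates 1 and 3, held the SP1 letters alone, on the other strand from 47 bases before the start.
Atp5b: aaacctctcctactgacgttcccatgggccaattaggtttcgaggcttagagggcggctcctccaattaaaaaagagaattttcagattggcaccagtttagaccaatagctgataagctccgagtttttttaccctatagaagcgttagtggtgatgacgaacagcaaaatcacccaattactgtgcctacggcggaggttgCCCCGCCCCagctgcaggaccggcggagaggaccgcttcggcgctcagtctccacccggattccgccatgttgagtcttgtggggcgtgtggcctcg

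Most subunit genes reached 1 TPM in the deposited counts, whose strand setting was not tested. In replicates 1 and 3, 78 of the 88 reached 1 TPM, where 24.2% of all genes and 44.3% of protein-coding genes did. In every library 60 did, against 14.8% of all and 29.4% of protein-coding genes; this number follows the shallow replicate 2, in which 28 subunit genes had no count. The 8 genes without a count in any library were Ndufa11b, Ndufb4c and Ndufs6b of complex I and Cox6a2, Cox6c2, Cox7b2, Cox8b and Cox8c of complex IV. With a limit of 3 counts, which covers counting error only, such a gene could reach 0.633 CPM in replicate 1 and 0.847 CPM in replicate 3. In RNA of a whole culture, fewer cells that express a gene and less RNA per cell cannot be told apart. The median over the 78 genes was 92.0, 50.6 and 43.6 TPM in replicates 1, 2 and 3, beside 17.1, 12.7 and 8.61 TPM over the 9636 protein-coding genes at 1 TPM in replicates 1 and 3.

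The subunit genes took 0.751%, 0.545% and 0.456% of all counts in replicates 1, 2 and 3, with exact 95% intervals of 0.743 to 0.758, 0.483 to 0.613 and 0.449 to 0.463. Among genes that share no exonic position with the other strand, the 65 subunit genes of that kind took 1.14% (1.12 to 1.15), 0.885% (0.763 to 1.02) and 1.01% (0.986 to 1.03) of the counts. The lower share of replicate 3 was thus much smaller within this class of genes than over all counts. Replicates 1 and 3 still did not overlap in their counting intervals, while the interval of replicate 2 met that of replicate 3.

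**Figure D1:**
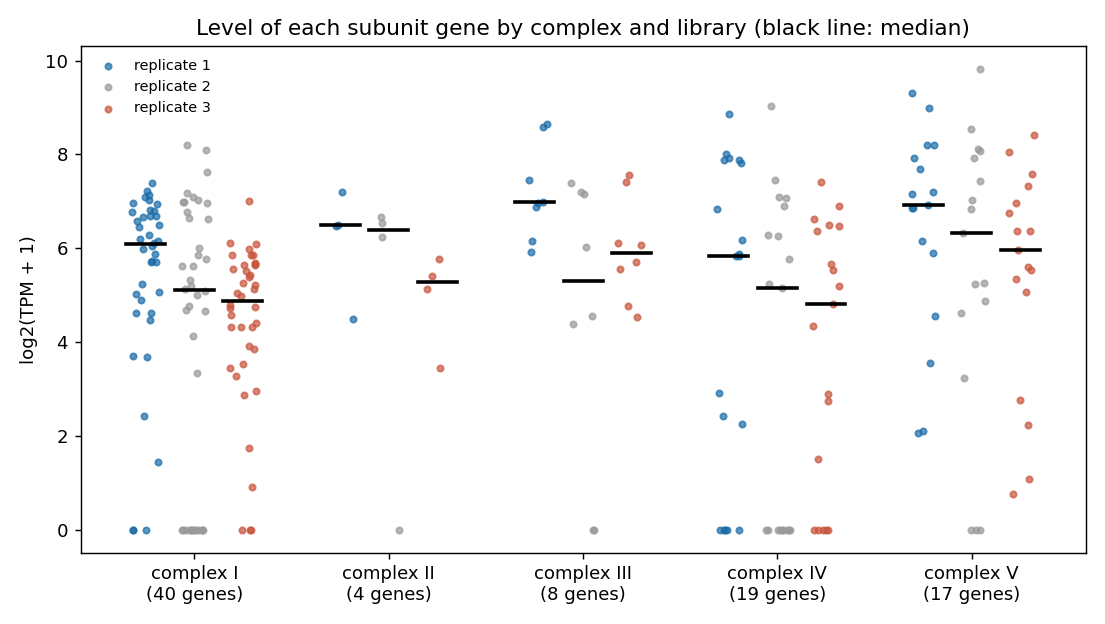
Each point is a subunit gene, placed by complex on the horizontal axis and by its level in log2(TPM + 1) on the vertical axis, with replicates 1, 2 and 3 in separate columns and the median as a black line. Medians of complex V lie above those of complexes I and IV in each library, and many genes sit at 0 in replicate 2, which held 50627 counts.

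Averaged over the libraries, complex V had the highest and complexes I and IV the lowest median level. The medians in log2(TPM + 1), as mean ± SD over 3 libraries, were 6.40 ± 0.49 for complex V, 6.06 ± 0.85 for complex III, 6.05 ± 0.68 for complex II, 5.36 ± 0.64 for complex I and 5.27 ± 0.53 for complex IV. The complex I median minus the complex V median was -0.84, -1.22 and -1.08 in replicates 1, 2 and 3, and that of complex IV minus complex V -1.08, -1.17 and -1.16. The order of complexes I and IV was not fixed: complex I minus complex IV was 0.24, -0.05 and 0.07, and complex IV was also above complex I among members without opposite-strand exons (5.303 against 5.297) and on the length of the longest coding transcript (6.09 against 5.68). Complex III was above complex V in replicate 1 (6.98 against 6.93) and in the mean over members in place of the median (5.92 against 5.79). Complexes II and III did not keep an order with each other across the libraries. The place of complex IV depended on its muscle, lung and testis forms. Without these rare isoforms its median was the highest of the 5, at 6.45 ± 0.76 and that of complex I, without Ndufa4l2, was 5.40. Members are not replicates, and no test was made over them.

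Complex I, the NADH dehydrogenase, had its highest mean over replicates 1 and 3 on annotated exon length in Ndufa2, at 140, 144 and 128 TPM in replicates 1, 2 and 3. Ndufs6, an accessory subunit near the iron-sulfur clusters of the peripheral arm, stood at 166, 197 and 67.8 TPM. Ndufa4 stood at 147, 0 and 56.9 TPM; its protein is named for complex I but is now known as part of complex IV. Replicate 1 was above replicate 3 for Ndufs6 and Ndufa4, and close to it for Ndufa2, whose exons lie for 10.5% under those of Tmco6.

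The catalytic core of complex I showed a wide spread. The iron-sulfur subunit Ndufs8 had 279, 3 and 95 counts, or 135 TPM in replicate 1. Ndufs3 stood at 51.3, 56.9 and 44.7 TPM and Ndufs7, which holds the last iron-sulfur cluster, at 28.8, 0 and 10.6 TPM. Ndufv1, the subunit that binds NADH, stood at 51.5, 98.3 and 18.9 TPM and its partner Ndufv2 at 69.7, 124 and 18.9 TPM. Ndufs1, the longest of the core genes here at 8086 bp of annotated exons, stood at 23.5, 35.7 and 9.98 TPM. Each of these genes had at most 7 counts in replicate 2, so its level there is loose.

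At the bottom of the complex I genes with counts, Ndufb4 had 11, 0 and 2, or 4.39, 0 and 0.867 TPM. Its protein is nonetheless a membrane-arm subunit of the complex. Its coding sequence has 1 near-identical copy among annotated transcripts. Ndufa4l2, a paralog of Ndufa4 known as induced by low oxygen, had 4, 0 and 5 counts, or 1.71, 0 and 2.32 TPM.

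Complex II was close to even apart from 1 gene. Sdha, the flavoprotein that oxidises succinate, stood at 88.5, 74.4 and 33.8 TPM in replicates 1, 2 and 3, and the iron-sulfur subunit Sdhb at 89.3, 92.2 and 41.7 TPM. The membrane anchor Sdhd stood at 146, 101 and 53.6 TPM, and the other anchor, Sdhc, at 21.4, 0 and 9.83 TPM. Sdhc was the lowest of the 4 in each library. None of the 4 genes shares an exonic position with the other strand.

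In complex III 2 small subunits, Uqcr10 and Uqcrh, led in replicates 1 and 3. Uqcr10 stood at 382, 141 and 189 TPM and the hinge protein gene Uqcrh at 398, 167 and 170 TPM, followed by Uqcrb at 174, 0 and 67.8 TPM. The Rieske iron-sulfur protein gene Uqcrfs1 stood at 125, 0 and 51.4 TPM. The core protein Uqcrc2 stood at 125, 146 and 45.9 TPM, while Uqcrc1 had 625, 2 and 214 counts, or 70.6 and 26.3 TPM in replicates 1 and 3. Uqcrq was lowest in those libraries, at 59.4 and 22.2 TPM. Uqcrh and Uqcr10 exceeded every other complex III gene in replicates 1 and 3; in replicate 2, on 5 and 2 counts, they did not stand apart from Uqcrc2.

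In complex IV the widespread subunits were high. Cox6b1 stood at 464, 525 and 170 TPM, Cox6a1 at 255, 118 and 118 TPM, and Cox7b at 242, 136 and 97.4 TPM. Cox4i1, the subunit that regulates the enzyme in response to ATP, stood at 223, 133 and 88.4 TPM. The subunits Cox5a and Cox5b stood at 56.5, 0 and 19.3 TPM and at 113, 53.2 and 45.1 TPM. On annotated exon length Cox6b1 was the highest complex IV gene in each of the 3 libraries. On the length of the longest coding transcript Cox6c was above it in replicate 3 (194 against 158 TPM).

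The genes of the catalytic head were among the highest of complex V. Atp5b, the beta subunit that makes ATP, stood at 638, 370 and 263 TPM, and Atp5a1, the alpha subunit beside it, at 507, 277 and 190 TPM. The single-copy head subunits were lower: the gamma rotor gene Atp5c1 stood at 204, 130 and 81.1 TPM, the delta gene Atp5d at 146, 171 and 81.0 TPM and the epsilon gene Atp5e at 70.0, 23.5 and 39.9 TPM. Alpha and beta, which are present in several copies in each enzyme, were above gamma, delta and epsilon in 3 of 3 libraries. Atp5f1, the stator subunit b, stood at 293, 241 and 339 TPM and was the highest complex V gene in replicate 3; its exons lie for 8.21% under those of Wdr77. Atp5mpl, a small membrane subunit, stood at 241, 905 and 124 TPM and was the highest complex V gene in replicate 2, on 8 counts. On the length of the longest coding transcript it stood at 422 TPM there, below Atp5b at 640 TPM. At the low end Atp5l, a membrane subunit, stood at 3.26, 0 and 1.10 TPM and Atp5s, a coupling factor, at 3.15, 0 and 0.683 TPM.

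Gene length changed this picture for some members. The length in the tables sums all annotated exons of a gene, and for 27 of the 88 genes it was at least 2 times that of the transcript with the longest coding sequence in a later GENCODE release. The largest ratio, 11.8, was that of Atp5l (6443 against 544 bp), whose level became 29.3 and 10.6 TPM in replicates 1 and 3 on the shorter length. On that length Atp5b stood at 1071 and 471 TPM and Atp5f1 at 570 and 703 TPM, and the complex V median became 7.30. In complex I, Ndufb8 then had the highest mean over replicates 1 and 3, at 271 and 121 TPM (77.0 and 32.3 TPM on annotated exons), and Ndufa2, at 106 and 104 TPM, was below Ndufa4 and Ndufs6 as well. Atp5e then stood at 222 and 135 TPM, and alpha and beta stayed above gamma, delta and epsilon in replicates 1 and 3. Atp5l also has 14 other genes with a near-identical copy of its coding sequence (90% identity over at least 50% of it), 13 of them annotated pseudogenes, the highest number of all members; these copies held 17, 0 and 21 counts. How multiply mapping reads were treated is not given in the sources used here, so its level is uncertain. Such copies existed for 38 of the 88 genes, Atp5h and Ndufa1 having 6 each.

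**Figure D2:**
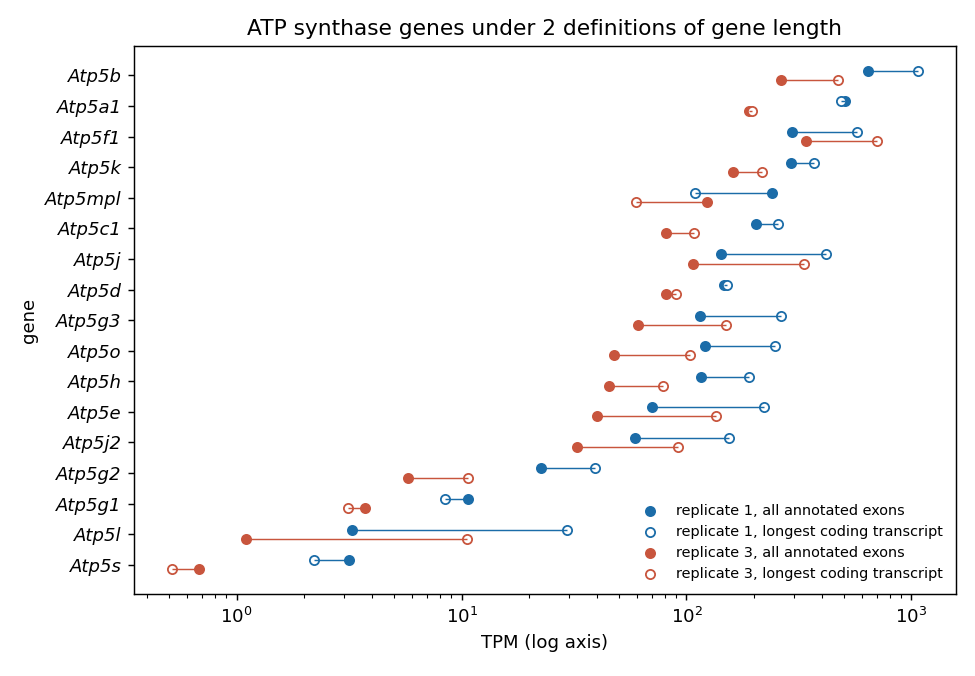
Levels of the 17 complex V genes in TPM on a log axis, for replicates 1 (blue) and 3 (red), with filled points using all annotated exons as gene length and open points the longest coding transcript. Atp5b stands at 638 and 263 TPM with the first length and at 1071 and 471 TPM with the second, and Atp5l moves farthest, from 3.26 to 29.3 TPM in replicate 1.

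The widespread isoform was the major one in each complex IV pair. Cox4i1 had 741, 5 and 270 counts against 11, 0 and 10 for Cox4i2, the form best known from lung, a TPM ratio of 34.2-fold in replicate 1 and 13.7-fold in replicate 3. Cox6a1 had 384, 2 and 163 counts while the heart and muscle form Cox6a2 had none, which puts it at least 124-fold higher in replicate 1 and 52.6-fold higher in replicate 3, taking 3 counts for Cox6a2. Cox7a2 was 54.0-fold and 15.8-fold above the heart and muscle form Cox7a1, which had 5, 1 and 6 counts. In replicate 2 the log2 ratio of this pair was 1.18 (exact 95% counting interval -2.16 to 6.80), which does not set the genes apart. Cox8a had 275, 1 and 87 counts against none for the muscle form Cox8b, at least 60.6-fold and 19.2-fold higher in replicates 1 and 3, and none for Cox8c, at least 80.1-fold and 25.3-fold higher.

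The testis forms gave the same order. Cox6b1 was 122-fold above Cox6b2 in replicate 1 and 92.7-fold in replicate 3, with 9, 0 and 4 counts of Cox6b2. Cox7b2 had no count, and Cox7b was above it by at least 93.6-fold and 34.7-fold in those libraries. Of 4 germ cell markers and 4 striated muscle markers examined, 1 each reached 1 TPM in replicates 1 and 3, with at most 11 counts for any of the 8. Cox7a2l, a paralog of Cox7a2 that links complexes III and IV into supercomplexes, had 142, 0 and 80 counts and lay below Cox7a2 by 4.07-fold in replicate 1 and 2.54-fold in replicate 3. In complex I, Ndufa4 was 86.2-fold and 24.6-fold above Ndufa4l2.

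The 3 genes for the same c-ring protein of the ATP synthase differed in level. Atp5g3 stood at 115, 114 and 61.2 TPM, Atp5g2 at 22.6, 0 and 5.75 TPM and Atp5g1 at 10.6, 8.41 and 3.72 TPM. Atp5g3 exceeded Atp5g1 by a log2 ratio of 3.74 ± 0.30 over 3 libraries, and Atp5g2 by 2.35 in replicate 1 and 3.41 in replicate 3. The log2 ratio of Atp5g1 to Atp5g2 was -1.08 in replicate 1 (exact interval -1.51 to -0.65) and -0.63 in replicate 3 (-1.47 to 0.25), so only replicate 1 set these 2 genes apart, and the sign turned to 0.69 when counts were not divided by length. Each of these 2 genes has 4 near-identical copies.

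Across the 12 pairs an exact two-sided sign-flip test could be made for 8, with counts of both genes in at least 2 libraries. This exact test cannot go below p = 0.25 with 3 libraries or below 0.50 with 2. Cox7a2 against Cox7a1 and Atp5g3 against Atp5g1, higher in 3 of 3 libraries, reached 0.25, and the Benjamini-Hochberg adjusted value was 0.50 for each of the 8 pairs. No pair could pass the threshold in this design.

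**Figure D3:**
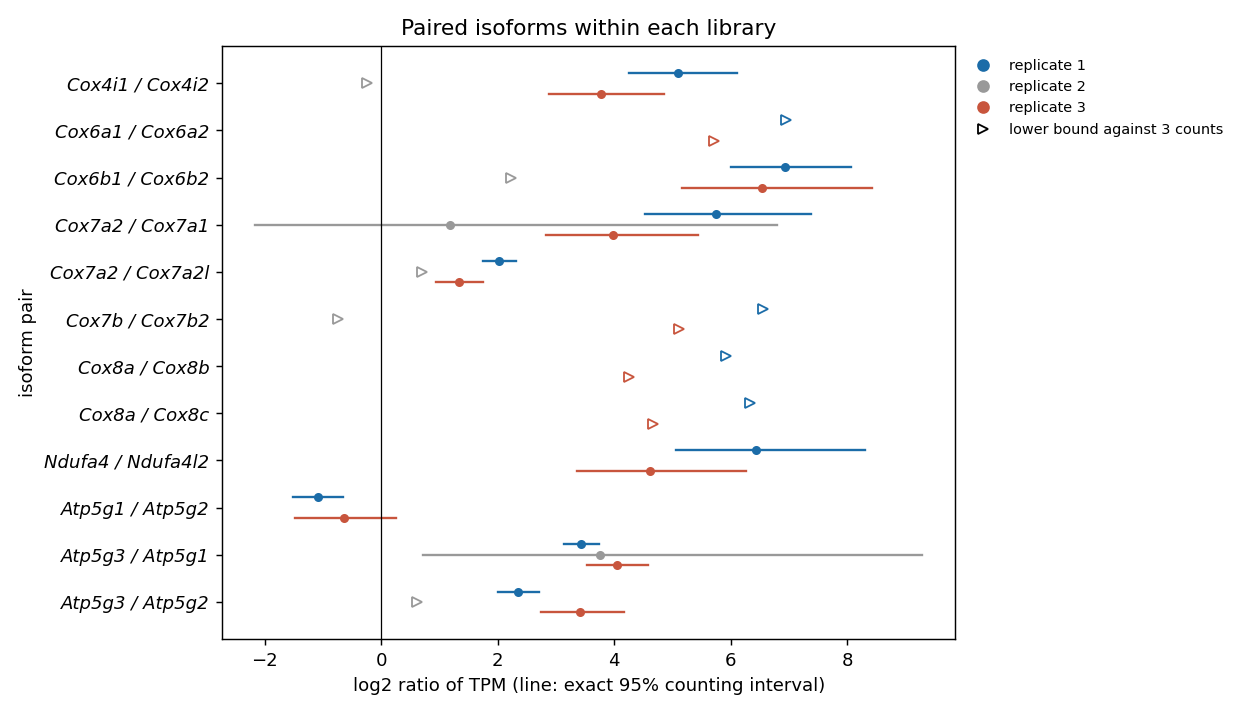
Log2 ratio of TPM between the first and second gene of each of the 12 isoform pairs, by library, with exact 95% counting intervals as lines and, where the second gene had no count, a lower bound against 3 counts as an open triangle. In replicates 1 and 3 all pairs but Atp5g1 and Atp5g2 lie above 0. Among pairs with counts of both genes the ratios run up to 6.94, for Cox6b1 against Cox6b2 in replicate 1.

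Replicate 3 had less of nearly all subunit genes than replicate 1. For members without opposite-strand exons the amount was close to that of other genes without them. Among the 53 members with at least 50 counts over both libraries and no exonic position shared with the other strand, the CPM ratio between replicates 3 and 1 had a median of -0.94 on the log2 scale (quartiles -1.10 and -0.72), and none was above 0. Over all 5857 genes of this kind the median was -0.84 (quartiles -1.04 and -0.64) and 5.17% were above 0. TMM scaling, which sets a factor per library from the bulk of its genes, adds 0.69 to the log2 ratio of every gene. With it the members' median was -0.25. Scaling to the total of genes without overlap adds 0.77, and the members' median was then -0.17. Both move members and other genes alike, so the distance between their medians stays the same. By complex the median ran from -0.88 in complex I (24 genes) to -1.06 in complex IV (8 genes). Over the 74 members with enough counts, overlapping or not, the lowest ratios were those of Atp5g2 (-1.67; 81 and 19 counts), Ndufv2 (-1.58), Ndufa9 (-1.39), Ndufa1 (-1.32) and Atp5l (-1.26).

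Overlapping subunit genes had lower ratios than the median of other genes with like overlap, by an amount that depended on the class. The 9 members with at least 50 counts and 10% to 40% of exonic positions shared with the other strand had a median of -0.83, and 1 of them, Ndufa2 at 0.17, was above 0. Over all 1489 genes of that class, which was added after the values were seen, the median was 0.57 (quartiles -0.50 and 0.81) and 65.7% were above 0. Over all 2117 genes with 10% or more, up to complete overlap, it was 0.66 (quartiles -0.13 and 0.84) with 73.1% above 0. Below 10% the medians were closer, -0.82 for 12 members and -0.56 for all 2045 genes. Over any overlap up to 50% they were -0.83 for 21 members and -0.07 for 3691 genes. These are descriptions of few genes, and the difference was not tested. Of the 21 overlapping members with enough counts 4 were above 0: Atp5f1 (0.51), Ndufa2, Cox6c (0.13) and Ndufs3 (0.10). Atp5f1 had 544, 474 and 774 CPM in replicates 1, 2 and 3, while Wdr77, the gene head to head with it, had 214, 1 and 75 counts and a ratio of -1.09.

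**Figure D4:**
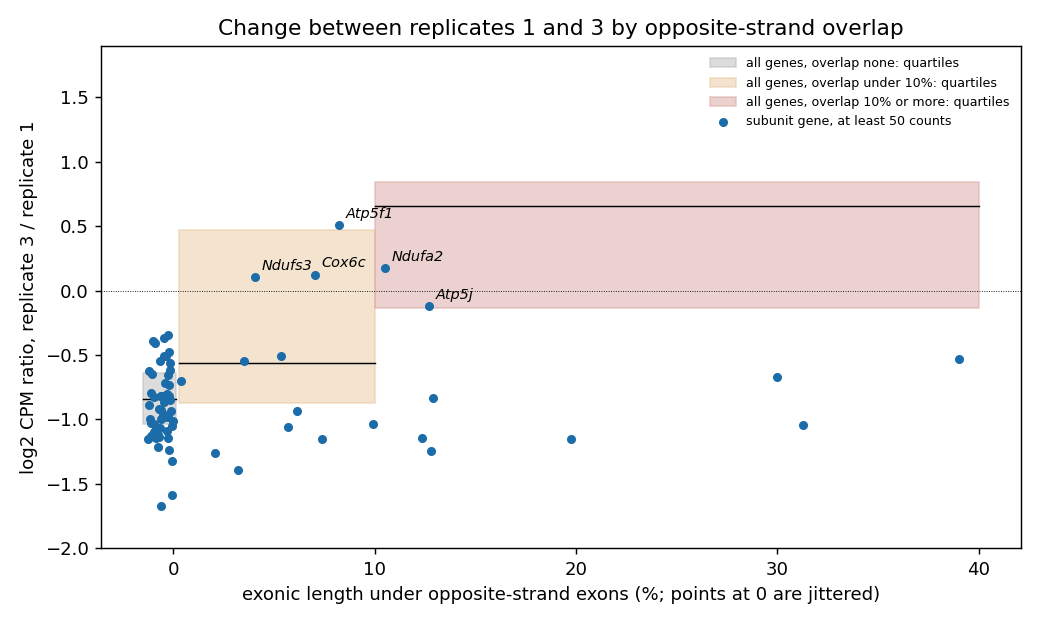
Log2 CPM ratio of replicate 3 to replicate 1 (vertical axis) against the percentage of exonic length under opposite-strand exons (horizontal axis) for the subunit genes with at least 50 counts, with the median (black line) and quartiles (shaded) of all genes of the same overlap class. The members without overlap lie below 0 like other genes of their class, and most members with 10% or more lie below the quartiles of theirs, which run from -0.13 to 0.84.

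The opposite-strand partners carried the counts in most of these pairs. In all, 23 subunit genes (26.1%, against 22.1% of protein-coding genes) share exonic positions with a gene of the other strand, 12 head to head, 8 tail to tail, 2 containing the partner and 1 inside it. Together the 23 had 10038 counts in replicate 1 and 6270 in replicate 3, and their partners, taking for each the gene with the longest shared stretch, 23544 and 30288. The partner had the higher count in 15 of 23 pairs in each of replicates 1 and 3. Per kb of exon it was higher in 11 pairs in replicate 1 and in 14 in replicate 3.

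Single pairs were far apart. Gm26631, which lies tail to tail with Cox5a and covers 12.8% of its exonic length, had 4742, 92 and 6571 counts against 254, 0 and 80 for Cox5a. Pdzd9 had 2595, 53 and 3383 counts against 685, 9 and 231 for Uqcrc2. The mitochondrial ribosomal protein gene Mrpl47 had 2707, 38 and 3562 counts against 252, 3 and 85 for Ndufb5, and Smim27 had 1681, 56 and 2978 against 143, 2 and 74 for Ndufb6, which has the largest overlap of all members (39.0%). Emc8, head to head with Cox4i1, had 1976, 22 and 3032 counts against 741, 5 and 270. Tssk6, a kinase gene known from testis, had 50, 0 and 92 counts against 325, 1 and 153 for Ndufa13, and Gm15976 had 21, 0 and 28 against 583, 2 and 211 for Atp5o. Tssk6 covers 30.0% of the exonic length of Ndufa13, while Gm15976 covers 356 of the 706 bp of Atp5o that lie under the other strand (31.3%).

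In 19 pairs with at least 50 counts of both genes, the partner was above 0 in the ratio of replicate 3 to replicate 1 and the subunit gene below in 13, the reverse held in 2 (Atp5f1 with Wdr77 and Cox6c with Vps13b), both genes were below 0 in 2 and both above in 2. The median ratio of the 20 partners with at least 50 counts was 0.81. Atp5j and Gabpa, whose 5′ exons overlap by 397 bp, had 955, 6 and 657 and 1316, 12 and 1211 counts, with ratios of -0.12 and 0.30. The headers give a counting setting by strand, and whether fragments were assigned to the strand they came from was not tested; over the series, genes embedded for 90% or more in an opposite-strand host with at least 20 counts in the pair had more counts per kb than the host in 213 of 292 pairs in replicate 1 and 219 of 293 in replicate 3. With the setting opposite to the kit, the levels of all 88 subunit genes, not those of the 23 alone, would be counts of the other strand. Values that bear on the strand for the mitochondrial genome are given with its subunits in the last paragraph.

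**Figure D5:**
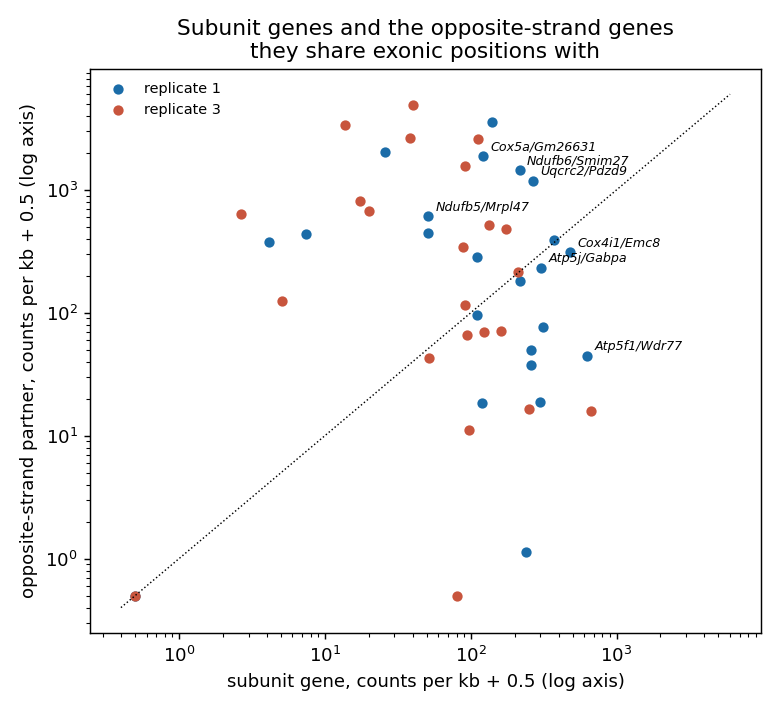
Counts per kb of exon plus 0.5, on log axes, of the 23 subunit genes that overlap the other strand (horizontal) and of their opposite-strand partners (vertical), in replicates 1 (blue) and 3 (red), with the dotted line marking equal values. Points above the line, 11 in replicate 1 and 14 in replicate 3, are pairs in which the partner had more counts per kb.

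Whether a gene varied between the 3 libraries by more than counting error was tested with chi-square on TMM-scaled totals (edgeR), over all genes that passed a filter on low counts, at a Benjamini-Hochberg adjusted p of 0.05. Of the 88 members 59 passed the filter on low counts, and 39 of these (66.1%) varied, where 63.2% of all 7406 genes tested did. After TMM scaling, 34 of the 59 tested were called with replicate 3 below replicate 1 (57.6%, against 36.3% of all genes tested) and 5 with replicate 3 above (8.47% against 26.9%): Atp5f1, Atp5j, Cox6c, Ndufa2 and Ndufs3, each of which overlaps the other strand. Without TMM scaling 53 of 59 varied (89.8%, against 88.5% of all genes tested). Replicate 3 was lower in 52 (88.1% of those tested, against 66% of all genes) and higher in 1 (1.69% against 22.5%). The members' share of calls in either direction together is near that of all genes. These shares by direction were not matched for overlap with the other strand, and those of genes without overlap follow below. Calls numbered 4 of 59 tested without replicate 1 (6.78%, against 9.47% of all genes tested). They numbered 32 of 74 without replicate 2 (43.2% against 37.9%) and 2 of 59 without replicate 3 (3.39% against 3.65%).

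Tested among genes without opposite-strand exons alone, 5 of 43 members varied (11.6%, against 13.5% of the 4136 genes tested). Replicate 3 was below replicate 1 in 4 of them (9.3% of members tested, against 5.44% of all genes of the class). It was above in 1 (2.33% against 8.1%). Scaled to this class by TMM, Atp5a1 had 1715, 932 and 1396 CPM in replicates 1, 2 and 3, and Atp5b had 2919, 1687 and 2611; both were lowest in replicate 2 and lower in replicate 3 than in replicate 1. Uqcrc1 followed the same order at 315, 88.8 and 255, with 2 counts in replicate 2. Ndufv2 had 150, 266 and 88.0, with 6 counts in replicate 2, and Atp5mpl had 94.8, 355 and 106, with 8 counts in replicate 2. The common biological coefficient of variation of the members, the spread beyond counting error estimated by edgeR, was 0.123 in this class and 0.164 for all genes of it. Over all genes kept it was 0.254 for the members and 0.341 for all; the members had the higher value without TMM scaling (0.402 against 0.378) and without replicate 3 (0.269 against 0.240).

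Members ranked alike in the deep libraries. Pearson's r of log2(TPM + 1) between replicates 1 and 3 was 0.98 and Spearman's rho 0.97 over the 88 members, and 0.70 and 0.73 between replicates 1 and 2. These correlations run across genes, which are not independent replicates and share library depth and gene lengths.

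Other genes of the pathway were read from lists that do not use these symbols. Of the carriers and subunits outside the name rule, cytochrome c (Cycs) had 1011, 9 and 364 counts, or 139, 109 and 54.3 TPM, and Cyc1, the cytochrome subunit of complex III, stood at 174, 173 and 74.8 TPM. Usmg5, a small ATP synthase subunit, stood at 275, 121 and 89.3 TPM and the inhibitor of the ATP synthase, Atpif1, at 132, 143 and 54.6 TPM. Testis cytochrome c (Cyct) had no count. Of the 5 tested in this list 4 varied (63.2% of all genes tested did), each lower in replicate 3 than in replicate 1. Among genes without opposite-strand exons 0 of 2 were called by the chi-square test (1 at an unadjusted p under 0.05), so that Cyc1 and Cycs lost their calls.

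Assembly factors stood lower than the subunits. All 14 complex I factors reached 1 TPM in replicates 1 and 3, with list medians of 19.2 and 9.57 TPM, beside medians of 66.9 and 28.4 TPM for complex I subunits. Of 10 tested, 3 varied, against 63.2% of all genes: Acad9 and Ndufaf6 with replicate 3 below replicate 1, and Ndufaf3 (204, 3 and 376 counts) above. Ndufaf6 had 51, 5 and 21 counts, or 10.8, 98.8 and 5.93 CPM, so that the shallow replicate 2 stood farthest apart. Of the 19 complex IV factors 18 reached 1 TPM in replicates 1 and 3, with medians of 22.1 and 9.82 TPM, and 6 of 11 tested varied (63.2% of all genes). The 4 of these that were higher in replicate 3 were the copper carrier Sco2, Surf1, Cox20 and Coa6, whose exons lie for 72.4%, 7.82%, 91.1% and 14.1% under those of Ncaph2, Surf2, Hnrnpu and Tarbp1. Of the complex II, III and V factors 4, 6 and 3 genes were listed, all at 1 TPM in replicates 1 and 3, and 1 of 1, 2 of 2 and 0 of 2 (1 at an unadjusted p under 0.05) tested varied; the 3 calls were Sdhaf2 and Uqcc1 below and Ttc19 above in replicate 3. In the test among genes without opposite-strand exons (13.5% called over all), 1 of 8 complex I factors (Ndufaf6) and 1 of 3 complex IV factors (Cox17) varied, and 0 of 1, 0 of 1 and 0 of 2 factors of complexes II, III and V, of which 1, 0 and 0 had an unadjusted p under 0.05. Acad9, Coa5, Lrpprc, Sdhaf2 and Uqcc1, which have no overlap, lost their calls there.

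Among regulators of mitochondrial gene expression, 10 of 12 reached 1 TPM in replicates 1 and 3. Ppargc1a, the coactivator known for driving mitochondrial genes in muscle and brown fat, had no count, and its relative Ppargc1b had 12, 0 and 7. Pprc1, another member of that family and known from proliferating cells, stood at 40.2, 27.5 and 29.0 TPM. Yy1 stood at 101, 114 and 56.1 TPM, Gabpa at 108, 87.1 and 108 TPM, Nrf1 at 14.6, 4.02 and 6.22 TPM, and Tfam, the packaging factor of mitochondrial DNA, at 31.5, 74.4 and 12.8 TPM. Of 7 tested 5 varied, against 63.2% of all genes; after TMM scaling Nrf1 and Tfam were lower in replicate 3 and Pprc1, Gabpa and Esrra higher, of which the last 3 share exonic positions with the other strand. Among genes without opposite-strand exons 0 of 3 were called (2 at an unadjusted p under 0.05), and Nrf1 and Tfam lost their calls.

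Of the 13 subunits encoded by mitochondrial DNA, mt-Nd4l, mt-Co2, mt-Co3, mt-Atp6 and mt-Atp8 had no count in any library, while mt-Co1 had 10559, 94 and 3981. The highest was mt-Nd6, which is encoded on the other strand from the remaining 12, at 16696, 34287 and 18312 TPM. The strand setting was not tested with these values.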

How the data were processed

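Each library was deposited by the authors as a table of whole-number counts without normalization. The file headers name featureCounts 1.4.6-p4 in paired mode, requiring both mates aligned, with strand setting 1 and GENCODE M13; the labels give mm10. Aligner version and library kit: not given in the sources used here. If the kit marks the other strand, this setting assigns a fragment to the gene across from its source. Exonic length in bp, another value of the deposited tables, entered TPM.

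CPM, FPKM and TPM were computed from the counts. Symbols matched 50376 of 50600 identifiers. Exon overlap came from the deposited coordinates (bedtools 2.31.1), coding lengths and copies from GENCODE M21 (blastn 2.17.0), promoters from RefSeq on GRCm38.p6. TMM, filterByExpr and dispersion used edgeR 4.0.16, alternative size factors DESeq2 1.42.0. With 1 group, edgeR's quasi-likelihood test was not possible. Tested on data simulated with counting error alone, the chi-square test found 99% of 2-fold and 100% of 4-fold changes and called 0.347% of unchanged genes. Of 7406 genes, 200 with higher counts were changed, in replicate 3 only. Spread beyond counting error was not simulated, so these rates do not carry over to the 3 libraries. Shares have exact Clopper-Pearson 95% intervals, which cover counting error only, since the reads carry no molecular identifiers in the tables. Scripts ran in R 4.3.3 and Python 3.11.15.

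Members and lists were chosen with earlier results of these data known. Named genes were the 3 highest and 2 lowest per complex by mean TPM over replicates 1 and 3, core subunits, isoform pairs, genes overlapping by 10% or more with their partners, the 5 highest and 5 lowest ratios, and listed pathway genes; other overlap partners, genes called without overlap, and genes given with copies or promoters were chosen after their values were seen. Values of some listed genes are not reported here.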

Additional observations from a re-analysis of the deposited data

How the results depend on the processing

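The order of isoforms in 7 of the 8 pairs recomputed and the direction of the median shift between replicates 1 and 3 were kept under the alternatives run. In place of 39 members, 5 varied among genes without opposite-strand exons (11.6% of those tested, against 13.5% of all genes of the class). With replicates 1 and 3 alone, a setting chosen after seeing the data, 5 also varied in that class (9.43% against 11.6%). Leaving out 1 replicate gave 2 to 32, each from its own set of genes tested. These were 3.39% to 43.2% of members tested, against 3.65% to 37.9% of all genes. With at least 10 counts required in every library, 3 members were detected in place of 60. Median levels of complexes I, II, III, IV and V were 4.37, 5.05, 5.06, 4.29 and 5.40 in log2(FPKM + 1), and the means over members were 4.61, 5.32, 5.92, 3.96 and 5.79, with complex III above complex V. Complex IV stood at 6.45 without rare isoforms, 6.04 without members under 10 counts and 4.72 in log2(CPM + 1). On the length of the longest coding transcript, chosen after seeing the data, complexes IV and V stood at 6.09 and 7.30. Atp5g1 against Atp5g2 turned to 0.69 without length correction, since Atp5g1 is annotated as longer. The ratio of replicate 3 to replicate 1 was -0.25 with TMM factors and -0.17 with totals over genes without overlap for members without overlap, and -0.15 and -0.065 for overlapping members. No paired analysis was possible because the 3 libraries form 1 group. The depth of replicate 2 limits every level there.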
